A study of Mus musculus with 10 samples.

Results

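The genes described here encode the inducible AP-1 transcription factors and their closest immediate early companions: the FOS family members Fos, Fosb and Fosl2, the JUN family members Jun, Junb and Jund, and Egr1, Nr4a1, Atf3 and Ier2. They were chosen by name, as the rows of the deposited gene table whose symbol is one of these 10, and all 10 were found among the 20579 genes of that table. None of them was removed by the filter on low counts. FOS and JUN proteins are basic leucine zipper (bZIP) factors that bind DNA as pairs, the complex called AP-1. Immediate early genes are switched on by growth factors, stress or tissue handling without prior protein synthesis, and most of their messages decay fast. In the intestine AP-1 is known for roles in epithelial proliferation and wound repair and in the activation of immune and stromal cells.

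RNA was sequenced from intestinal cells of mouse embryos at stage E18.5 of strain C57BL6/J / 129S4, 5 libraries from p57KO embryos, which lack the cyclin-dependent kinase inhibitor p57Kip2 (gene Cdkn1c), and 5 libraries from p57WT embryos. In both genotypes the cells had been freed mechanically, sorted for green fluorescent protein driven by the Hopx promoter, a reporter used to mark reserve intestinal stem cells, and collected directly into Trizol. The labels call them Hopx+ intestinal stem cells and state neither the knockout allele, nor litters, nor any treatment of the animals. Each library also carries a label number, whose meaning is not given: p57KO 1 and 2 and p57WT 1 carry 607, p57KO 3 to 5 carry 608, and p57WT 2 to 5 carry 740.

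Total counts lay between 8037887 and 26809231 a library. Cdkn1c had 0.153 to 2.06 CPM (counts scaled to library size) in p57KO libraries and 150.5 to 458.1 CPM in p57WT libraries, so every library matched its genotype label. Hopx itself had 127 to 199 CPM in p57KO and 60.4 to 78.1 CPM in p57WT libraries. The libraries were not epithelium alone: 12 smooth muscle markers summed to 5700 to 38770 CPM in p57KO and 57430 to 117900 CPM in p57WT libraries, against 9108 to 17360 CPM in p57KO and 3112 to 7541 CPM in p57WT libraries for 15 epithelial markers. Features of the ribosomal RNA repeat took 0.0301% to 0.435% of counts in p57KO 1 to 4 and p57WT 2, and 9.47% to 17% in p57KO 5 and p57WT 1, 3, 4 and 5. In these bulk libraries, fewer cells of a type and less RNA per cell cannot be told apart.

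In p57KO cells Nr4a1 and Fosb fell to 0.327 and 0.313 times their p57WT level in the fit, Atf3 rose to 2.27 times its p57WT level, and the other 7 genes did not pass the test. Of the 10, 1 rose and 2 fell at an adjusted p below 0.05 (edgeR quasi-likelihood test, Benjamini-Hochberg over 16710 genes). Over all genes tested 36.5% were called, 19.3% higher and 17.2% lower in p57KO, so the 3 of 10 lie near the background share. The median log2 fold change, p57KO over p57WT, was -0.32 over the 10 genes and 0.08 over all genes. The median of the 10 depended on single libraries: it was -0.82 without p57KO 2, -0.58 without p57KO 1 and -0.11 without p57KO 4. An unadjusted p below 0.05 was reached by 4 of the 10 (these 3 and Jund).

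**Figure D1:**
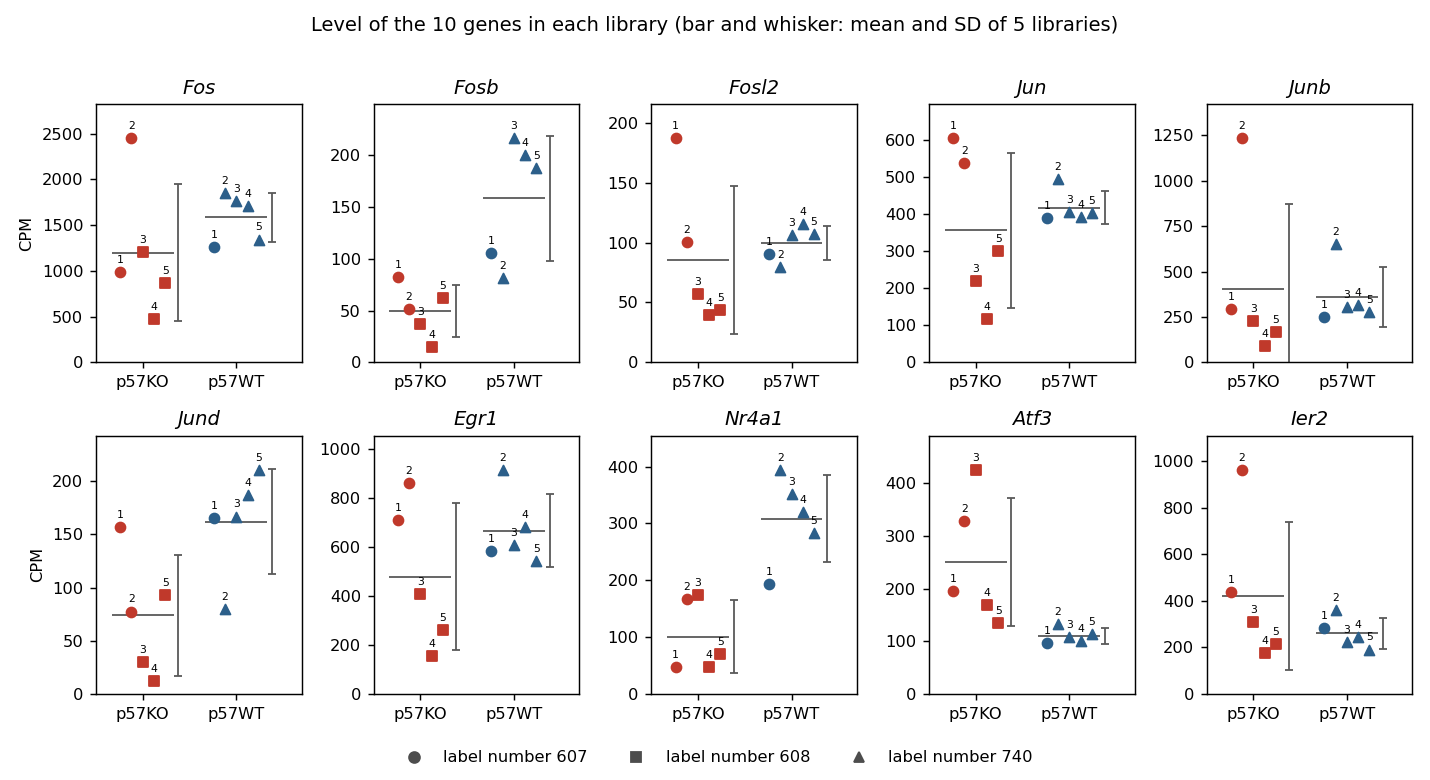
CPM of the 10 genes in each library, 1 panel a gene, with p57KO libraries left of p57WT libraries; bars mark the mean and whiskers 1 SD (n = 5 each), and the whisker of Junb in p57KO is cut at 0. Nr4a1 and Atf3 are the genes whose genotypes do not overlap, and the widest spread is that of Junb in p57KO, from 92.2 to 1234 CPM.

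Fos, the founding FOS family gene, was the most abundant of the 10 in every library per kilobase of exon. It stood at 986, 2452, 1205, 477 and 866 CPM in p57KO 1 to 5, against 1260, 1850, 1765, 1711 and 1343 CPM in p57WT 1 to 5. All p57KO libraries but p57KO 2, the highest of all 10, lay below every p57WT library. The log2 fold change was -0.41 (SE 0.38, 95% interval -1.23 to 0.42, edgeR adjusted p = 0.423).

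Fosb encodes the FOS family member whose shortened product, deltaFosB, is known for its long life in neurons. It had 82.2, 51.5, 37.4, 14.6 and 61.6 CPM in p57KO 1 to 5, against 105, 81.7, 216, 200 and 187 CPM in p57WT 1 to 5. The genotypes met only where p57KO 1 lay just above p57WT 2; all other p57KO values were below every p57WT value. Fosb fell by 1.68 on the log2 scale (SE 0.41, 95% interval -2.57 to -0.78, edgeR adjusted p = 0.00805). Fosl2, encoding FRA2, a FOS family member without a strong activation domain, had 187, 100.5, 56.8, 39.3 and 43.7 CPM in p57KO 1 to 5, against 90.5, 79.6, 106, 116 and 107 CPM in p57WT 1 to 5. Here p57KO 1 was above and p57KO 3 to 5 below every p57WT library, and the log2 fold change was -0.22 (SE 0.38, edgeR adjusted p = 0.675).

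Jun encodes c-Jun, the most potent activator among the JUN proteins. It stood at 605, 539, 219, 117 and 302 CPM in p57KO 1 to 5, against 389, 495, 406, 394 and 402 CPM in p57WT 1 to 5. For Jun, p57KO 1 and 2 were above all p57WT libraries and p57KO 3 to 5 below all of them. The log2 fold change of -0.23 (SE 0.38, edgeR adjusted p = 0.662) thus averaged libraries on opposite sides of the p57WT range. Junb, a weaker activator that can restrain c-Jun, had 294, 1234, 226, 92.2 and 165 CPM in p57KO 1 to 5, against 250.1, 654, 304, 314 and 278 CPM in p57WT 1 to 5. Library 2 was by far the highest of its genotype in p57KO and in p57WT. The log2 fold change of Junb was 0.16 (SE 0.59, edgeR adjusted p = 0.851), and it was -0.88 without p57KO 2.

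Jund encodes the JUN protein usually regarded as constitutive rather than inducible. It had 157, 77.5, 29.8, 12.5 and 93.2 CPM in p57KO 1 to 5, against 165, 79.8, 167, 187 and 211 CPM in p57WT 1 to 5. The p57WT libraries were above all p57KO libraries except for p57WT 2, which lay between p57KO 2 and p57KO 5. The log2 fold change of -1.13 (SE 0.52, 95% interval -2.26 to -0.01) missed the threshold (edgeR adjusted p = 0.103). Without p57KO 1 it was -1.60 (edgeR adjusted p = 0.0242), and limma voom on all 10 libraries called it at -1.57 (adjusted p = 0.0402). No other fit that left out 1 library called it (edgeR adjusted p up to 0.195). With the ribosomal RNA class as a term it was at -0.59 (edgeR adjusted p = 0.596). Of 24 alternative settings 5 called it. A predicted gene on the opposite strand overlaps Jund, and the labels give no strand setting for the counting. How reads over both genes were counted, or whether they were left out, is thus not known. Genes on the opposite strand also overlap Jun, Junb and Atf3; those of Jun and Junb in the table, Junos and Prdx2, had log2 fold changes of 0.01 and 0.50 (edgeR adjusted p = 0.984 and 0.105).

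Egr1 encodes a zinc-finger factor induced by the same serum and ERK signals as Fos. It had 710, 860.3, 407, 155 and 259.8 CPM in p57KO 1 to 5, against 583, 916, 608, 681 and 544 CPM in p57WT 1 to 5. As for Jun, p57KO 3 to 5 were below every p57WT library, while p57KO 1 and 2 lay inside the p57WT range. The log2 fold change was -0.48 (SE 0.41, edgeR adjusted p = 0.371). Ier2, a short immediate early gene whose protein is nuclear, had 437, 963, 310.4, 177 and 216 CPM in p57KO 1 to 5, against 284, 361, 222, 245 and 191 CPM in p57WT 1 to 5. Its highest libraries were p57KO 2 and p57KO 1, p57KO 3 and 5 lay inside the p57WT range and p57KO 4 just below it, and the log2 fold change of 0.69 (SE 0.42) did not pass the test (edgeR adjusted p = 0.204).

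Nr4a1 encodes the orphan nuclear receptor NUR77, which is induced with the FOS genes. It had 47.6, 166, 174, 46.6 and 69.7 CPM in p57KO 1 to 5, against 193, 395, 351, 319.9 and 284 CPM in p57WT 1 to 5. Every p57KO library was below every p57WT library. Nr4a1 fell by 1.61 on the log2 scale (SE 0.40, 95% interval -2.48 to -0.75, edgeR adjusted p = 0.00836). Atf3 encodes a bZIP factor induced by cell stress that pairs with JUN proteins. It had 195, 328, 426, 169 and 135 CPM in p57KO 1 to 5, against 96.4, 134, 107, 99.7 and 114 CPM in p57WT 1 to 5. All p57KO libraries were above all p57WT libraries, by the narrowest step between p57KO 5 and p57WT 2. Atf3 rose by 1.19 on the log2 scale (SE 0.31, 95% interval 0.52 to 1.85, edgeR adjusted p = 0.0103). The genotypes did not overlap for these 2 genes of 10, against 24.2% of all genes tested.

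The calls of Fosb, Nr4a1 and Atf3 held with each library left out in turn, with adjusted p at most 0.0308, and in a fit with the replicate number as a block, in which 34.7% of all genes were called. In the authors' deposited table the same 3 genes pass, with log2 fold changes of -1.68 for Fosb, -1.57 for Nr4a1 and 1.23 for Atf3. With the ribosomal RNA class as a term, a setting added after the data were seen, Nr4a1 kept its call at -1.95 (edgeR adjusted p = 0.0195). Fosb was then at -1.17 (edgeR adjusted p = 0.140) and Atf3 at 0.72 (edgeR adjusted p = 0.193). In that fit 17.7% of all genes were called, 7.22% higher and 10.5% lower. Only p57KO 1 to 4 and p57WT 2 were in the low class, so the class is mostly tied to genotype. Scaled to the 15 epithelial markers in place of all genes, the median of all genes was -1.22, against 0.08 with TMM scaling, and 7 of the 10 were called lower, with 62.7% of all genes called, 2.91% higher and 59.8% lower. Relative to that median Nr4a1 was at -1.72, Fosb at -1.82 and Atf3 at 1.08, while the unadjusted value of Atf3 was -0.15.

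The promoters of the 3 genes that passed the test are shown for the elements to which CREB, ATF and EGR factors bind, which are among those known to drive immediate early genes. The sequences run 5′ to 3′ over the 250 bases before the start in RefSeq (GRCm38.p6), at chr7:19310046-19310295 on the minus strand for Fosb, chr15:101266596-101266845 on the plus strand for Nr4a1 and chr1:191183334-191183583 on the minus strand for Atf3. The windows of Nr4a1 and Atf3 lie inside the longer spans of these genes in GENCODE M21, so other starts exist. Capitals mark the short cAMP response motif, TGACG on either strand (CGTCA on the strand shown), and the EGR site GCGNGGGCG on either strand.
Fosb: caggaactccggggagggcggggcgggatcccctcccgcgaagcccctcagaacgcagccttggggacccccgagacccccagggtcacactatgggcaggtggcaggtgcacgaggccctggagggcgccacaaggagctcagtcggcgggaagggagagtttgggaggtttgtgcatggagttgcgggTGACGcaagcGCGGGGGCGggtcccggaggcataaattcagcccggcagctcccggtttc
Nr4a1: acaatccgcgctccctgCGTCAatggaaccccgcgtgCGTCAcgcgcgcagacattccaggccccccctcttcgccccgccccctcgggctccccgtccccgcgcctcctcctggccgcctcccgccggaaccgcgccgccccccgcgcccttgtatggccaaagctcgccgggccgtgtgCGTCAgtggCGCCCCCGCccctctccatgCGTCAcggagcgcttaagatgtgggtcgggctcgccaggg
Atf3: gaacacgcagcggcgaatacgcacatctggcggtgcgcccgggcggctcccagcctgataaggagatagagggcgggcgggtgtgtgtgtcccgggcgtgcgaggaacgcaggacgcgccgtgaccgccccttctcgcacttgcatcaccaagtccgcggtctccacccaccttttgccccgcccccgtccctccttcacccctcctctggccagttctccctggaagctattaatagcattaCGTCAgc

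Of the 10 genes, 8 matched the RefSeq promoter table, all but Egr1 and Ier2. The motif TGACG, which CREB and ATF factors bind, was found in 5 of the 8 (Fos, Fosb, Junb, Nr4a1 and Atf3) and in 20.8% of all 32851 windows, searched on both strands from 250 bases before the start to 50 after it. Nr4a1 held 4 copies, and Atf3 held 1 that begins 7 bases before the start. The EGR site stood in Fosb, Fosl2 and Nr4a1 and in 5.55% of all windows. In Fosb the TGACG and EGR matches began 60 and 50 bases before the start. The variant TGACATCA, known from the Jun promoter, was found 45 bases before the start of Jun and in 3.62% of all windows. None of the 8 windows held the full element TGACGTCA (1.79% of all windows), the AP-1 site TGANTCA (7.81%) or an exact CArG box, to which SRF binds (1.63%). Matches with a mismatch were not counted and bases further upstream were not searched, so sites there or of looser form may exist. Each full TGACGTCA also contains TGACG. The genes that fell and the gene that rose thus both carry TGACG, and the matches describe letters in these windows only.

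The abundance order was compared per length, as CPM per kilobase of exon. Fos averaged 509 ± 319 CPM per kb in p57KO and 674 ± 113 CPM per kb in p57WT libraries (SD, n = 5 each). Ier2 came next, with 276 ± 210 CPM per kb in p57KO and 171 ± 43.1 CPM per kb in p57WT, and its spread took in Junb at 175 ± 205 in p57KO and 157 ± 72.2 in p57WT. In p57KO, Atf3 at 116 ± 56.8, Jun at 112 ± 65.5 and Egr1 at 107 ± 66.6 CPM per kb did not differ beyond their spread. In p57WT the means of Egr1, 149 ± 33, and Jun, 131 ± 13.9 CPM per kb, were above that of Jund, 97.2 ± 29.7. The spread of Jund overlapped both, and in p57WT 5 Jund at 126.5 exceeded Jun at 126.1 and Egr1 at 121.3 CPM per kb. Nr4a1 at 87.9 ± 21.8 and Atf3 at 51.1 ± 6.84 CPM per kb had lower means in p57WT. The means of Jund, 44.3 ± 34.1, and Nr4a1, 28.7 ± 18.2 CPM per kb, came below that of Atf3 in p57KO. In p57KO 1, though, Jund at 93.95 was above Atf3 at 90.68 CPM per kb. The lowest means were those of Fosl2, at 8.83 ± 6.38 in p57KO and 10.3 ± 1.49 in p57WT, and Fosb. Fosb was at 7.92 ± 4.07 in p57KO and 25.3 ± 9.68 CPM per kb in p57WT.

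Within the FOS and JUN families Fos made up the largest share in every library, 48.5% to 72.3% of the summed CPM per kb of the 6 genes in p57KO and 57.9% to 64.9% in p57WT libraries. Junb made up 11.9% to 29.6% in p57KO and 11.5% to 21.9% in p57WT, with its highest share in library 2 of both genotypes. Jund made up 10.9% in p57KO 1 and 9.24% in p57KO 5, against 2.52% to 2.56% in p57KO 2 to 4. In p57WT the share of Jund was 3.69% in p57WT 2 and 8.66% to 12.8% in the other 4 libraries. All 4 libraries with a Jund share below 4% were among the 5 libraries low in ribosomal RNA repeat counts, p57KO 1 being the fifth. The fit with that class as a term put Jund at -0.59 (edgeR adjusted p = 0.596).

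**Figure D2:**
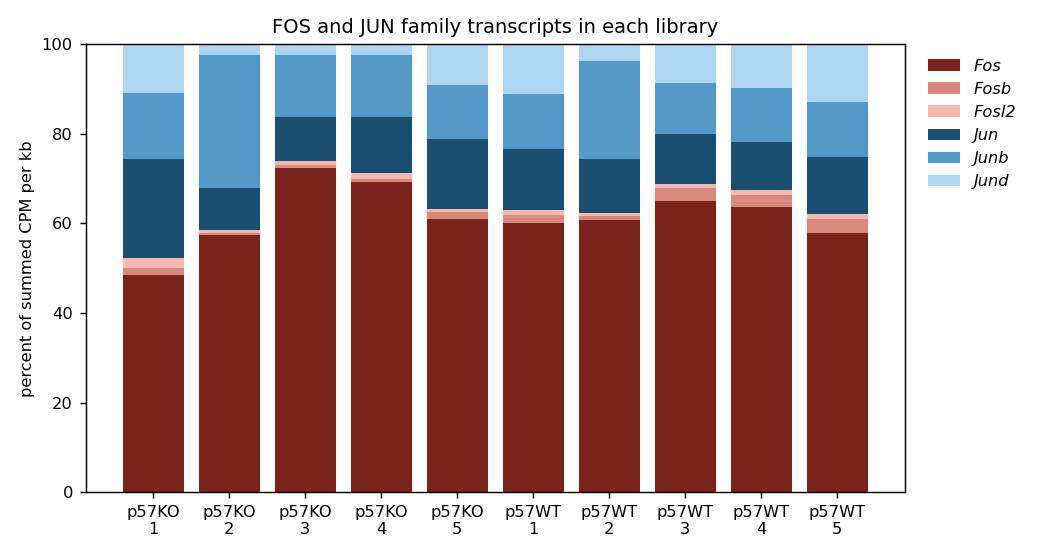
Share of each FOS and JUN family gene in their summed CPM per kb, as stacked bars in percent, 1 bar a library, p57KO left of p57WT. The Jund band is 2.52% to 3.69% in p57KO 2 to 4 and p57WT 2 and at least 8.66% in the other 6 libraries.

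The p57KO libraries differed by label number. In the 2 p57KO libraries of 607, the genes Fosl2, Jun, Junb, Egr1 and Ier2 were higher than in the 3 p57KO libraries of 608, all of them of the p57KO genotype. The log2 fold change, 607 over 608, was 1.62 for Fosl2 (SE 0.33, edgeR adjusted p = 0.0155), 1.43 for Jun (SE 0.37, 0.0404), 2.25 for Junb (SE 0.58, 0.0404), 1.52 for Egr1 (SE 0.40, 0.0437) and 1.58 for Ier2 (SE 0.41, 0.0406). So 5 of 10 were called, all higher in 607, where 6.68% of all genes were called, 3.01% higher and 3.67% lower. Fos at 1.02 (SE 0.45, 95% interval 0.03 to 2.00, adjusted p = 0.193), Jund at 1.38 and Fosb at 0.82 did not pass. Nr4a1 at 0.15 and Atf3 at 0.10 had intervals of -1.07 to 1.37 and -0.88 to 1.09.

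This contrast rests on few libraries. Of the 10 genes, 2 were called without p57KO 3, 0 without p57KO 4 and 3 without p57KO 5. Over all genes 348, 601 and 866 were called in these fits, against 1116 with all 10 libraries. Without p57KO 1 or p57KO 2 only 1 p57KO library of 607 was left. The fold changes without p57KO 1 and without p57KO 2 were then 1.11 and 1.85 for Fosl2 and 1.35 and 1.37 for Jun. They were 2.94 and 0.72 for Junb, 1.65 and 1.23 for Egr1 and 2.04 and 0.75 for Ier2. A fit of the 5 p57KO libraries alone called 0 of 10 (5 at an unadjusted p below 0.05, edgeR) and 692 genes in all.

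**Figure D3:**
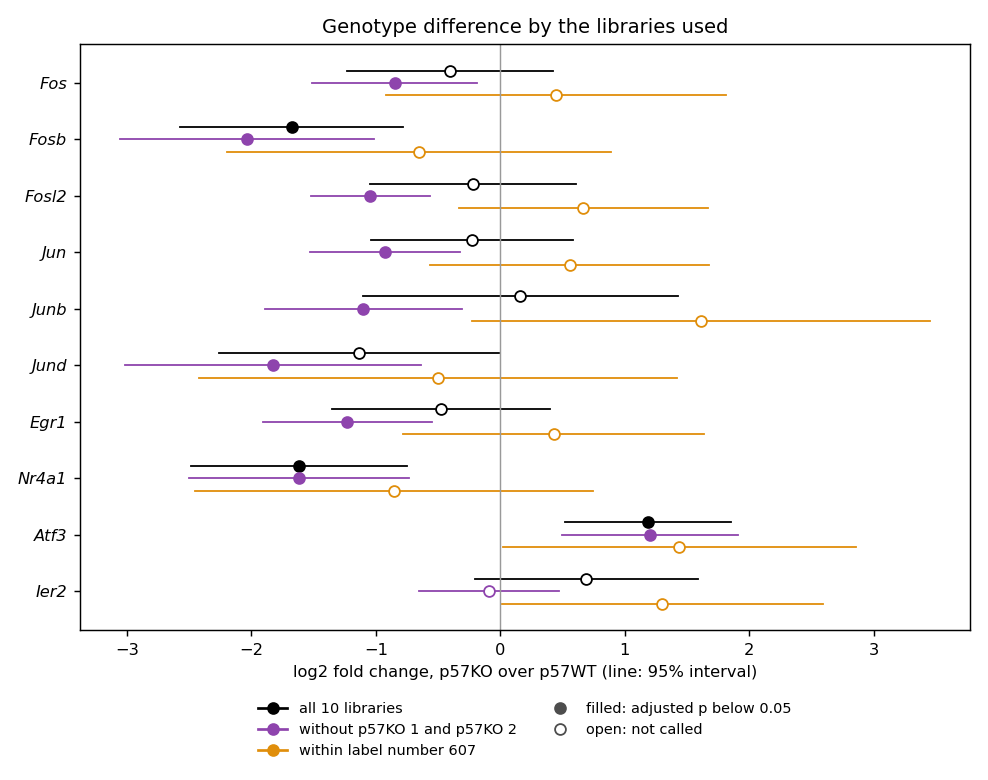
Log2 fold change of each of the 10 genes with its 95% interval, for p57KO over p57WT in all 10 libraries (black), without the 2 p57KO libraries of label number 607 (purple), and within 607 (orange); filled symbols mark an adjusted p below 0.05. Without p57KO 1 and 2 the points of Fos, Fosl2, Jun, Junb, Jund and Egr1 lie below 0 and pass the test, and within 607 no gene passes.

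Set against p57WT without p57KO 1 and 2, 9 of the 10 genes were called, 8 lower and Atf3 higher. Over all genes tested in that fit 39.7% were called, 20.6% higher and 19.1% lower. Beside Fosb, Nr4a1 and Atf3, the genes that then passed were Fos at -0.85 (edgeR adjusted p = 0.0427), Fosl2 at -1.04 (0.00415), Jun at -0.93 (0.0203), Junb at -1.10 (0.0323), Jund at -1.83 (0.0209) and Egr1 at -1.23 (0.0101). Ier2, at -0.09, did not pass (adjusted p = 0.787). In 7 of the 10 genes all 3 p57KO libraries of 608 lay below every p57WT library, as did 19.3% of all genes. Atf3 alone of the 10 lay above every p57WT library in all 3, as did 17.9% of all genes. Leaving out p57WT 1 as well, so that 607 was absent from both genotypes, again called 9 of the 10, 8 lower and 1 higher, with 36.4% of all genes called, 17.6% higher and 18.8% lower.

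Within 607, the only label number that holds both genotypes, the 2 p57KO libraries were set against the lone p57WT library, which was assumed to vary like the other groups. None of the 10 genes passed in edgeR, against 6.04% of all genes, and 2 (Atf3 and Ier2) had an unadjusted p below 0.05. The log2 fold changes were -0.65 for Fosb (95% interval -2.19 to 0.89), -0.85 for Nr4a1 (-2.45 to 0.75) and 1.44 for Atf3 (0.02 to 2.86, adjusted p = 0.225), so those 3 kept their sign. Those of Fos (0.45), Fosl2 (0.67), Jun (0.56), Junb (1.61), Egr1 (0.43) and Ier2 (1.30) were above 0, and that of Jund was -0.50. A fit with label number as a term gives these same values, since 607 alone holds both genotypes. With 608 only in p57KO and 740 only in p57WT, genotype and label number cannot be told apart in the other 7 libraries.

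Markers of other cells differed between the same libraries. The 8 neutrophil markers of 14 in the table summed to 666 CPM in p57KO 1 and 5045 CPM in p57KO 2, to 21.9 to 65.8 CPM in p57KO 3 to 5, and to 1.74 to 11.6 CPM in p57WT libraries. The 13 macrophage and pan-leukocyte markers of 14 summed to 658 CPM in p57KO 1, 4946 CPM in p57KO 2, 218 to 1074 CPM in p57KO 3 to 5 and 28.3 to 210.0 CPM in p57WT libraries, and 10 of the 13 tested rose. All 12 smooth muscle markers fell, as did all 6 fibroblast markers tested. Of 15 epithelial markers 14 rose, as did 9 of 10 enterocyte and all 7 erythroid markers tested. Smooth muscle markers summed to 5700 and 8919 CPM in p57KO 1 and 2 and to 27060 to 38770 CPM in p57KO 3 to 5. Fibroblast markers summed to 124 and 218 CPM in p57KO 1 and 2 and to 745 to 1235 CPM in p57KO 3 to 5. No marker in these lists was at 0 in all libraries of a genotype. The summed CPM of the 10 genes was 3702, 6772, 3092, 1300.0 and 2212 in p57KO 1 to 5. In p57WT 1 to 5 it was 3415, 5045, 4252, 4268 and 3661. Library p57KO 2 was highest for the 10 genes and for neutrophil, leukocyte, T, B and mast cell, epithelial, enterocyte and erythroid markers. The p57WT library highest for the 10 genes, p57WT 2, had the lowest neutrophil sum of all, 1.74 CPM. Leukocyte markers were lower in p57KO 1 (658 CPM) than in p57KO 3 (1074 CPM), while the 10 genes were higher.

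**Figure D4:**
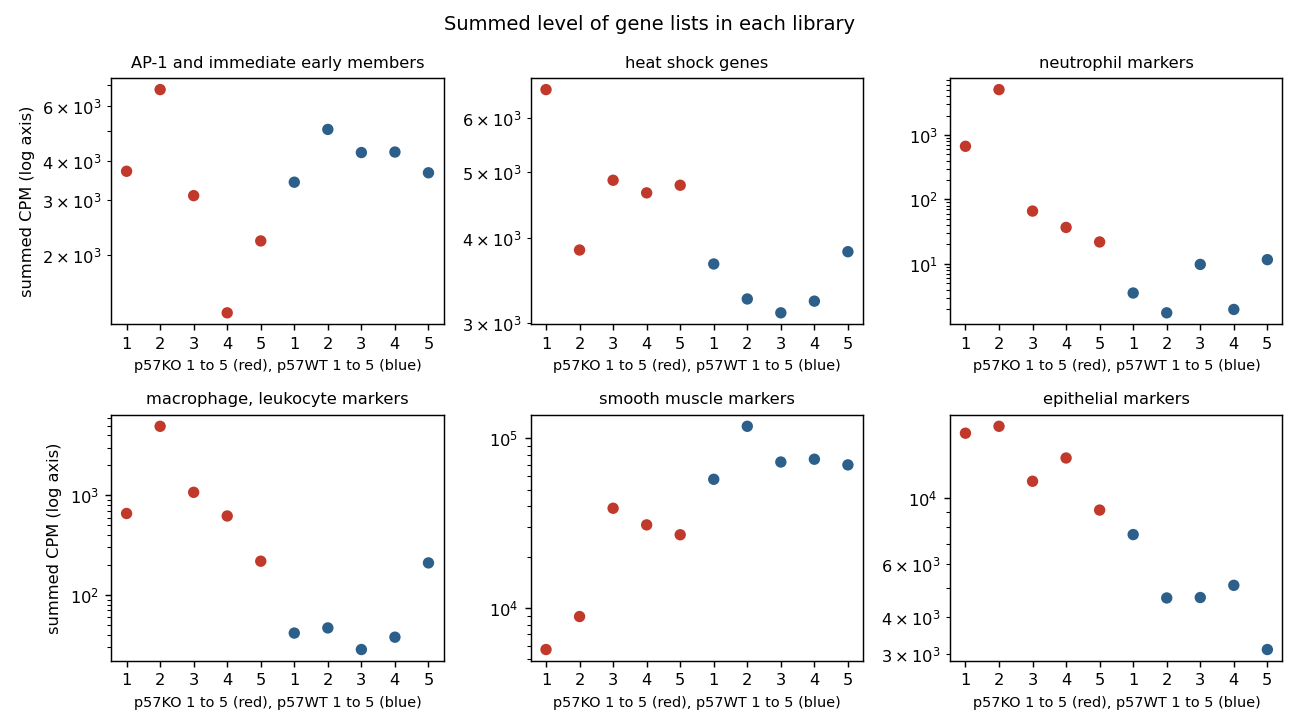
Summed CPM, on log axes, of the 10 AP-1 and immediate early genes, of heat shock genes and of 4 marker lists in each library, p57KO libraries (red) left of p57WT libraries (blue). The 10 genes reach 6772 CPM in p57KO 2 and 1300.0 CPM in p57KO 4, neutrophil markers reach 666 and 5045 CPM in p57KO 1 and 2 and at most 65.8 CPM elsewhere, and smooth muscle markers are lower in every p57KO library than in any p57WT library.

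With the mean log2 level of the leukocyte markers as a covariate, none of the 10 genes was called in edgeR (3 at an unadjusted p below 0.05), against 8.29% of all genes, 3.65% higher and 4.64% lower. The log2 fold changes were then -2.17 for Nr4a1 (edgeR adjusted p = 0.0668), -1.87 for Fosb (0.0908) and 0.66 for Atf3 (0.461). With the smooth muscle mean as the covariate Fosb and Fosl2 were called, at -2.50 and -2.15, and 10.7% of all genes were called, 6.75% higher and 3.97% lower. Nr4a1 was then at -1.44 (adjusted p = 0.220) and Atf3 at 1.25 (0.143). Both marker means differ between the genotypes, so these fits divide the same difference between genotype and marker level, and the part of cell composition in the results was not tested beyond them.

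Around AP-1, 122 genes of 7 pathway lists were tested, and 19 rose and 27 fell; these 46 of 122 lie near the 36.5% of all genes called (19.3% higher and 17.2% lower). Of 12 other bZIP partners tested, 4 rose and 1 fell, with a median log2 fold change of 0.42 against 0.08 over all genes. Without p57KO 1 and 2, 2 rose and 3 fell and the median was -0.18, and with the leukocyte covariate none was called in edgeR and the median was -0.75. Maf rose by 1.90 on the log2 scale and Nfe2l2, encoding the oxidative stress factor NRF2, by 1.24. Nfe2l2 had 549 and 292 CPM in p57KO 1 and 2, 142 to 181 CPM in p57KO 3 to 5 and 64.2 to 148 CPM in p57WT libraries. Atf7, a partner in the ATF2 group, fell by 1.22 on the log2 scale, with 32.7 ± 7.52 CPM in p57KO and 76.1 ± 11.4 CPM in p57WT libraries (SD, n = 5 each; edgeR adjusted p = 0.00143).

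Of 38 other immediate early genes, 3 rose and 7 fell, with a median of -0.06. Ccn2, a matricellular target of SRF and YAP signaling, averaged 45.7 ± 33.5 CPM in p57KO and 255 ± 148 CPM in p57WT and fell by 2.48 on the log2 scale (edgeR adjusted p = 0.00282). The growth arrest gene Gadd45g fell by 1.08, and Nr4a2 and Nr4a3, named here after their values were seen because they are the paralogs of Nr4a1, fell by 1.24 and 1.51 (edgeR adjusted p = 0.0485 and 0.0483). Sgk1, a kinase gene induced by serum and glucocorticoids, and Egr2, a zinc-finger paralog of Egr1, rose by 3.05 and 1.85 on the log2 scale. Both were highest in the p57KO libraries of 607, Sgk1 at 110 and 323 CPM and Egr2 at 66.5 and 79.4 CPM, against at most 30.3 CPM for Sgk1 and 36.2 CPM for Egr2 in p57KO 3 to 5. Without p57KO 1 and 2, 2 of the list rose and 15 fell. The number that fell was 12 without p57KO 2, 4 without p57KO 1, and 3 without p57KO 3, p57KO 4 or p57WT 1, 3, 4 or 5. Over all genes 2881 fell with all 10 libraries, 3542 without p57KO 1, 2589 without p57KO 2 and 2246 to 2634 in the other fits.

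Of 24 genes for SRF, its TCF and MRTF partners, CREB and the upstream kinases, which switch on Fos and Egr1, 10 fell and 2 rose, with a median of -0.49. Srf averaged 40.5 ± 18.3 CPM in p57KO and 123 ± 31.5 CPM in p57WT and fell by 1.60 on the log2 scale (edgeR adjusted p = 0.00231). Its coactivator gene Mrtfa fell by 1.48, the JNK pathway kinase gene Map2k7 by 1.03 and Braf by 0.94. Without p57KO 1 and 2 the number that fell was again 10, and with the ribosomal RNA term it was 5. Srf and Mrtfa are also expressed in smooth muscle, whose markers fell in the same libraries, and the part of that tissue was not tested for this list beyond the covariate fit, in which 3 of the 24 fell.

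Of 14 MAPK phosphatases and ERK feedback genes, 3 fell and 1 rose, with a median of -0.42. Without p57KO 1, 6 fell, and over all genes 3599 rose and 3542 fell in that fit, against 3226 and 2881 with all 10 libraries. Dusp8, a phosphatase of JNK and p38, averaged 14.3 ± 5.91 CPM in p57KO and 69.5 ± 22.1 CPM in p57WT and fell by 2.29 (edgeR adjusted p = 0.000525), with no overlap between genotypes. Dusp10 fell by 1.93 and the RAS inhibitor gene Rasa3 by 1.67. Dusp6, an ERK phosphatase gene induced by ERK itself, rose by 1.50, with 32.4 ± 17.9 CPM in p57KO and 11.4 ± 3.25 CPM in p57WT (edgeR adjusted p = 0.00815), and with the ribosomal RNA term no gene of the list was called higher. Of 10 factors that decay early messages, Zfp36l1 fell by 1.65 on the log2 scale and none rose; without p57KO 1, 3 fell and 1 rose. Zfp36l1 had 15.5 to 77.5 CPM in p57KO libraries, against 44.2 CPM in p57WT 2 and 137 to 198 CPM in the other p57WT libraries, and with the ribosomal RNA term it was not called. Zfp36, encoding tristetraprolin, which binds the Fos message, was at 1.11 with an adjusted p of 0.0654, Khsrp at -0.59 and Xrn1 at -0.32.

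**Figure D5:**
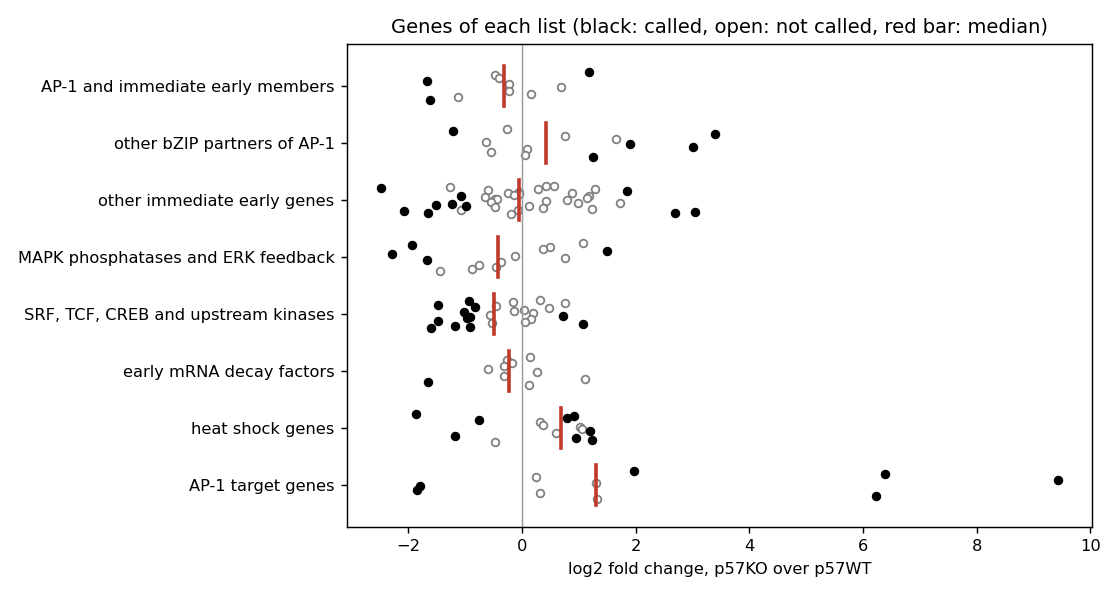
Log2 fold change, p57KO over p57WT, of each tested gene of the 10 AP-1 and immediate early genes and of the 7 pathway lists; black points passed the test, open points did not, and red bars mark list medians. Medians run from -0.49 for SRF, TCF, CREB and upstream kinases to 1.31 for AP-1 target genes, which is -0.25 without p57KO 1 and 2, with -0.32 for the 10 genes.

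Heat shock genes, which tissue dissociation can also induce, were measured for 14 genes. Of these 5 rose and 3 fell, with a median of 0.69. Without p57WT 2, 1 fell, and over all genes 2627 fell, against 2881 with all 10 libraries. Hspa5, the chaperone of the endoplasmic reticulum, had 811 to 945 CPM in p57KO and 291 to 538 CPM in p57WT libraries and rose by 1.20 (edgeR adjusted p = 0.00253). The mitochondrial chaperonin genes Hspe1 and Hspd1 rose by 1.23 and 0.94. Bag3, a co-chaperone gene important in muscle, fell by 1.87 on the log2 scale. The summed CPM of the heat shock list was 3840 to 6607 in p57KO and 3105 to 3818 in p57WT libraries. The genotypes were thus separated only by the narrow step between p57KO 2 and p57WT 5. Among single genes, 24.2% of all tested did not overlap. By mean CPM Hsp90ab1 was the largest part of the sum in both genotypes, and it did not pass the test (log2 fold change 0.37, edgeR adjusted p = 0.344).

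Of 20 listed AP-1 target genes, 10 could be tested, 4 of which rose and 2 fell, with a median of 1.31. Cxcl2, a neutrophil chemokine, had 642 and 3548 CPM in p57KO 1 and 2, 4.95 to 11.3 CPM in p57KO 3 to 5 and 0 to 2.96 CPM in p57WT libraries. Spp1, encoding osteopontin, had 360 and 1818 CPM in p57KO 1 and 2, 4.70 to 33.1 CPM in p57KO 3 to 5 and 1.21 to 11.9 CPM in p57WT libraries. Ccl2, a monocyte chemokine, had 232 and 860 CPM in p57KO 1 and 2, 2.70 to 13.7 CPM in p57KO 3 to 5 and 0.0790 to 9.84 CPM in p57WT libraries. The high values of all 3 stood in the p57KO libraries with most neutrophil markers. Without those libraries 1 of the list rose, 3 fell and the median was -0.25; without p57KO 2 alone the median was 0.40, and limma voom and the ribosomal RNA term called none higher. The matrix gene Fn1 fell by 1.79 on the log2 scale, with 206 ± 151 CPM in p57KO and 712 ± 155 CPM in p57WT (edgeR adjusted p = 0.00767).

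The profile over the 10 libraries was compared with that of 12439 genes averaging 5 CPM or more, as the root mean square difference of log2 CPM centred on each gene's mean. Nearest to Fos among other genes were Plekhm3 (0.295), Slc49a4 (0.301), Ttc39b (0.316), Tprgl (0.329) and Lyst (0.330). Of the 9 companions, Egr1 was nearest to Fos, at 0.356 and rank 11, before Jun at 0.461 and rank 135 and Junb at 0.486 and rank 222. Jund, at 1.03 and rank 8571, was the least like Fos. Nearest to Jund were Map4k4 (0.228), Gm17110 (0.322), Gm9917 (0.324), Cited4 (0.370) and Sash1 (0.371), and among the companions Fosb, at 0.444 and rank 15. Jund, Fosb and Fosl2 were at their lowest p57WT level in p57WT 2, while Fos, Egr1, Jun, Junb, Nr4a1, Atf3 and Ier2 were at their highest p57WT level there.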

How the data were processed

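The deposited table holds raw counts per gene for 5 p57KO and 5 p57WT libraries, normalized counts (a signal in which the authors divided each library's counts by its size factor), and the authors' own comparison with log2 fold changes, a test statistic (a score) and p-values, per the file headers. Tools named in the submitters' processing notes are HTSeq 1.0, DESeq2 1.22.2, STAR 2.6.1d, Trim Galore, FastQC, Cufflinks 2.2.1 and build mm10, without a strand setting. The table lists genes with a mean normalized count of at least 3, and 139 of its 20579 rows have no symbol.

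Counts were tested in R 4.3.3 with edgeR 4.0.16 (quasi-likelihood fit, TMM scaling, filterByExpr) over 16710 genes, 3869 being removed by the filter, with Benjamini-Hochberg adjustment over all of them and calls at an adjusted p below 0.05. The standard error is the fold change divided by the square root of F. CPM are edgeR's counts scaled by TMM library size, and lengths are exon unions of GENCODE M21. DESeq2 1.42.0 and limma 3.58.1 were alternatives, beside other scalings, left-out libraries, a replicate block, label number, marker means and ribosomal RNA class as terms. The procedure was tested on simulated data. Replicates of a genotype differed by more than sampling noise (chi-square per degree of freedom at least 9.5), so none was merged. This value was 9.5 to 32.87 between p57WT 1, 3, 4 and 5, 275 to 313.8 in pairs with p57WT 2, and 46.85 to 310.2 between p57KO libraries. In the main fit the p-values set the genotype difference against the spread between libraries within a genotype. They take the 10 libraries as independent, although several share a label number. Total counts of 8037887 to 26809231 a library put every value of the 10 genes above 10 CPM.

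All 10 genes are named, with the 4 genes of smallest p in each pathway list and the 5 genes nearest to Fos and to Jund; 1 gene this rule selects is not reported here. The members and all gene lists were chosen with earlier results of these data known. Promoters came from RefSeq (GRCm38.p6).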

Additional observations from a re-analysis of the deposited data

Results flagged for a closer look

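For each of the 10 genes in each genotype, a library was picked out where its gap to the nearest other library, divided by the range of its group, exceeded the Dixon value of 0.71 for 5 samples. Of 20 groups 3 were picked out, where chance gives about 1 in 20. Junb had 1234.4 CPM in p57KO 2, against 294.4 CPM in the next p57KO library (a gap of 0.823 of the range), and 653.97 CPM in p57WT 2, against 314.38 CPM in the next p57WT library (0.841). Jun had 495.21 CPM in p57WT 2, against 405.98 CPM in the next p57WT library (0.837). In p57KO 2 the neutrophil markers summed to 5045 CPM, and p57WT 2 was the p57WT library low in ribosomal RNA repeat counts; the part of either in these values was not tested.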

How the results depend on the processing

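With each library left out, the log2 fold changes over p57WT ran from -0.83 to -0.19 for Fos, -0.72 to -0.03 for Fosl2, -0.50 to 0.0082 for Jun (above 0 without p57KO 4), -0.88 to 0.49 for Junb (below 0 without p57KO 2), -1.60 to -0.85 for Jund (of these, called only without p57KO 1), -0.81 to -0.24 for Egr1 and 0.13 to 0.90 for Ier2. Those of Fosb (-1.93 to -1.43), Nr4a1 (-1.89 to -1.42) and Atf3 (0.92 to 1.36) stayed called; 3 to 4 members, 4763 to 7141 genes and 36 to 52 pathway genes were called. Scaled to epithelial markers, Fos was at -1.76, Fosl2 -1.64, Jun -1.61, Junb -1.28, Jund -2.51, Egr1 -1.86, Atf3 -0.15 and Ier2 -0.66, with 7 members, 10485 genes and 80 pathway genes called. Limma voom gave Junb -0.35 and Jund -1.57, which calls Jund and so 4 members. Without p57KO 1 and 2 the values were Fos -0.85, Fosl2 -1.04, Jun -0.93, Junb -1.10, Jund -1.83, Egr1 -1.23 and Ier2 -0.094, with 9 members called; without 607 they were Fos -0.97, Fosl2 -1.13, Jun -0.997, Junb -1.25, Jund -1.86, Egr1 -1.32 and Ier2 -0.11, also with 9. Label number as a term gave Fos 0.45, Fosb -0.65, Fosl2 0.67, Jun 0.56, Egr1 0.43, Nr4a1 -0.85 and Atf3 1.44, with 0 members (edgeR), 1009 genes and 6 pathway genes. The leukocyte covariate gave Fosb -1.87, Junb -2.19, Nr4a1 -2.17, Atf3 0.66 and Ier2 -0.72, with 0 members, 1386 genes and 12 pathway genes. The smooth muscle covariate gave Fosl2 -2.15, Junb -2.21, Nr4a1 -1.44, Atf3 1.25 and Ier2 -0.99, with 1791 genes and 21 pathway genes. The ribosomal RNA term, added after the data were seen, gave Fosb -1.17, Junb -0.65 and Atf3 0.72, with 1 member, 2959 genes and 21 pathway genes. Between p57KO libraries of 607 and 608, the 5 p57KO libraries alone gave Fosl2 1.54, Jun 1.36, Junb 2.19, Egr1 1.45 and Ier2 1.51, with 692 genes and 0 members called. With each p57KO library left out, that contrast ran from 0.07 to 1.53 for Fos, 0.43 to 1.35 for Fosb, 1.11 to 1.85 for Fosl2, 1.13 to 1.75 for Jun, 0.72 to 2.94 for Junb, 0.79 to 2.45 for Jund, 1.23 to 1.92 for Egr1, -1.17 to 0.88 for Nr4a1, -0.47 to 0.78 for Atf3 and 0.75 to 2.04 for Ier2, with 0 to 3 members and 348 to 1393 genes called. The cause of these shifts was not tested. DESeq2, DESeq2 size factors, total count scaling, no filter and, added later, leaving out p57WT 2 and p57KO 5 together changed no call among the 10.

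The replicate numbers are shared by the genotypes, but same-numbered libraries did not deviate together (r = 0.20, 0.05, -0.13, -0.12 and 0.15), and 1 of 5 p57KO libraries correlated best with its own number. The replicate block put Junb at -0.35 and left 3 members and 5804 genes called. Limits: 5 libraries a genotype, label numbers of unknown meaning and a ribosomal RNA share, both mostly tied to genotype, and unequal smooth muscle and leukocyte content.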
